A study of Homo sapiens with 414 samples.

Results

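The hypoxia and glycolysis genes are a set of 36 human genes that combine the enzymes, transporters and control proteins of glycolysis with transcripts known to be induced when oxygen is low. They are a list of gene names drawn up with earlier results of these data known, with no threshold on a measured value, and all 36 were found among the 19084 genes of the expression table. All 36 also passed the filter on low values (5 or more libraries reaching 1 TPM, the unit of transcript abundance explained below), which left 16318 genes for testing. The cells were H1-NPC, neural progenitors made from the H1 human embryonic stem cell line, cultured as 2D neural tissue in 48-well plates and exposed to a compound from day 0, and the study asked how toxic and non-toxic compounds differ in such cultures. RNA was sequenced from 414 wells lysed on day 1, 2, 3, 4, 6, 8, 10, 15, 21, 27 or 39, with 1 library per compound and day and 1 dose per compound. All cultures had been expanded with 5 ng/ml FGF2 before seeding.

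The toxic class held 266 libraries of 29 compounds, and most of their doses are given below where each compound is described. The others were dioxin at 3 nM, thalidomide at 100 ng/ml, carbamazepine at 10 µg/ml, permethrin at 2.5 µM, bioallethrin at 10 nM, propylthiouracil at 25 µg/ml and 2-imidazolidinethione at 0.4 mM. The non-toxic class held the other libraries, of 16 compounds, and was used as the comparison for every toxic compound. It comprised acetaminophen at 10 µg/ml, amoxicillin at 5 µg/ml, aspirin and ibuprofen at 20 µg/ml, naproxen sodium at 30 µg/ml, glucosamine at 0.4 µg/ml and PVP at 100 µg/ml. Ficoll 400, fructose, glycerol, glyphosate, PEG 3350, saccharin, sorbitol and sucrose were each given at 10 µM, and the vehicle DMSO at 0.1%. Between 7 and 16 non-toxic libraries were at hand per day. Oxygen in the medium or at the cells is not given in the labels, and all cells came from a single stem cell line. The libraries of a compound are wells of different days, and nothing states that they came from separate cultures, so p-values measure only the spread between these libraries, part of which may be technical.

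Glycolysis breaks glucose down to pyruvate in the cytosol, and lactate dehydrogenase turns pyruvate into lactate, which monocarboxylate transporters export together with a proton. When oxygen is scarce, prolyl hydroxylases of the EGLN family stop marking HIF alpha subunits for destruction, and the stabilised HIF dimer binds short ACGTG-type elements and raises glucose transporters, most glycolytic enzymes, VEGFA and its own negative regulators. Astrocytes are known as strongly glycolytic cells of the brain, whereas neurons rely more on respiration.

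The neural label was checked against marker genes of the non-toxic libraries. The neural progenitor genes SOX2 and NES had medians of 289 and 1639 TPM on day 1 and of 387 and 412 TPM on day 39, when SOX1, another such gene, had 36.1 TPM. PAX6, of the same list, was low, with medians of 7.3, 6.5 and 9.1 TPM on days 1, 10 and 39. The astrocyte filament gene GFAP had medians of 0.675, 41.2 and 3657 TPM on days 1, 10 and 39, and the neuronal gene STMN2 had 308, 1703 and 1552 TPM. AQP4, another astrocyte gene, was lower on day 10 than on day 1, with medians of 9.21, 1.6 and 291.6 TPM on the same days. The summed TPM of 4 pluripotency genes had medians of 55.1, 15.7 and 11 on days 1, 10 and 39. Of these genes, NANOG was under 1 TPM in the median library on all 3 days. POU5F1 had medians of 1.6, 1.32 and 0.66 TPM. The summed TPM of 4 microglial genes was at most 1.55 in any non-toxic library. TPM scales transcript abundance per length so that each library has the same total (999999.07 to 1000001.05), so read depth is unknown, and between 11377 and 17188 genes reached 1 TPM per library, most of all in the vincristine library of day 4, which stands apart and is described below. In 38 libraries, 37 of them from toxic compounds, long transcripts were low relative to short ones (a slope of the log2 deviation on log10 transcript length below -0.15), and fits were repeated without them. The maneb library, the one of lowest slope, is the only one of its compound and has no such repeat.

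The promoters of 4 members are shown because ACGTG is a core to which HIF is known to bind. These genes cover an acid-handling enzyme, the lactate-forming enzyme, a mitochondrial protein and a glycolytic enzyme without ACGTG. RefSeq promoter windows (250 bases before to 50 bases after a transcript start, build GRCh38.p14) were found for 32 of the 36 members, 63 windows in all. Capitals mark each ACGTG or its reverse complement CACGT, on either strand, and where both overlap they form the palindrome CACGTG. The variant GCGTG is not marked, and the LDHA, BNIP3 and ENO1 windows hold it on either strand. The CA9 window lies at chr9:35673678-35673977 on the plus strand, the LDHA window at chr11:18394313-18394612 on the plus strand, the BNIP3 window at chr10:131981874-131982173 on the minus strand and the ENO1 window at chr1:8878637-8878936 on the minus strand.
CA9: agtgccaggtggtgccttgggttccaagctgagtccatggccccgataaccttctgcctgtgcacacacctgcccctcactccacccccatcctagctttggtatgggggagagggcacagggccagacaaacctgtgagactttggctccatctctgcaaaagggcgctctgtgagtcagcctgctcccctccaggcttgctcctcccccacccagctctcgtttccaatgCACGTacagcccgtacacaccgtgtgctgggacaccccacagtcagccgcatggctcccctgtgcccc
LDHA: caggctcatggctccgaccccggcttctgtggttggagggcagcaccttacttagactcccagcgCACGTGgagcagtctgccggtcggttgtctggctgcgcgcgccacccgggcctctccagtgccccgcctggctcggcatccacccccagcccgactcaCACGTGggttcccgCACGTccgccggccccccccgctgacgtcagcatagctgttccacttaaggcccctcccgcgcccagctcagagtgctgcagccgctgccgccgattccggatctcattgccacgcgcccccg
BNIP3: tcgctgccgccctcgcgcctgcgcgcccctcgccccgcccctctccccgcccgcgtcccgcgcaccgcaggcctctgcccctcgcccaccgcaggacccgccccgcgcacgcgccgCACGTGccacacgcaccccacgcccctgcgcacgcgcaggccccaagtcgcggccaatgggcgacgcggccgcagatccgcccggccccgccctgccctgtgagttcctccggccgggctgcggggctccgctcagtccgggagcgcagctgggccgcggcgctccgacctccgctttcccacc
ENO1: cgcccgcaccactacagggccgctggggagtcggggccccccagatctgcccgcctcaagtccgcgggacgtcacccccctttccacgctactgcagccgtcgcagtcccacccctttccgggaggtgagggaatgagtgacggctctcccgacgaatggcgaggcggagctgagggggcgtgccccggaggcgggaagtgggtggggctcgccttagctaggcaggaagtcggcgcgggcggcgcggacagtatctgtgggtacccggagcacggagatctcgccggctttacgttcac
ACGTG was present on either strand in 27 of the 63 member windows (42.9%) and in 21.4% of the 35116 windows of all genes. At least 1 window of 21 of the 32 matched members held it, and 19 member windows held it without CACGTG. Of the matched members 19 had 1 window and the others more. The counts of 21 members and 19 windows have no share of all genes beside them. The palindrome, which is also the core of other factors' sites, was in 12.7% of member windows and 7.26% of all windows, and GCGTG in 41.3% and 36.5%. A match describes the letters of these windows and is no evidence of binding, and a window without the motif says nothing of sites elsewhere.

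As the non-toxic cultures aged, nearly all members rose after day 10, whereas up to day 10 they changed in both directions, in shares close to those of all genes. On day 10 against day 1, 14 of the 36 members were higher and 13 lower at an adjusted p under 0.05 (limma on log2(TPM + 1), Benjamini-Hochberg over all 16318 genes), where 35.6% of all genes were higher and 40.4% lower. On day 21 against day 10, 33 were higher and 2 lower, where 49.6% of all genes were higher and 12.5% lower. The lower members were GAPDH and PFKM (-0.15 ± 0.03 and -0.15 ± 0.05), and MXI1 did not pass the test (adjusted p 0.578). On day 39 against day 21, all 36 were higher, where 28.8% of all genes were higher and 42% lower. Set against day 1, all 36 were higher on day 39, where 44.3% of all genes were higher and 39.3% lower, and the median log2 difference was 2.60 over the members and 0.038 over all genes. The median level was highest on day 39 for 33 members and on day 27 for ADM, HK1 and PFKFB4. In whole-culture RNA, more RNA per cell and more cells of a type that makes it cannot be told apart. Marker levels of other cell types moved over the same days: the summed TPM of 9 astrocyte genes had medians of 296, 363, 2138, 3402 and 4980 on days 1, 10, 21, 27 and 39, and that of 8 mesenchymal and endothelial genes 2381, 586, 2510, 5673 and 6679. The endothelial genes PECAM1, CDH5 and KDR had medians under 1 TPM on each of these days from day 10 on. The part of such cells in the rise of the members was not tested.

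**Figure D1:**
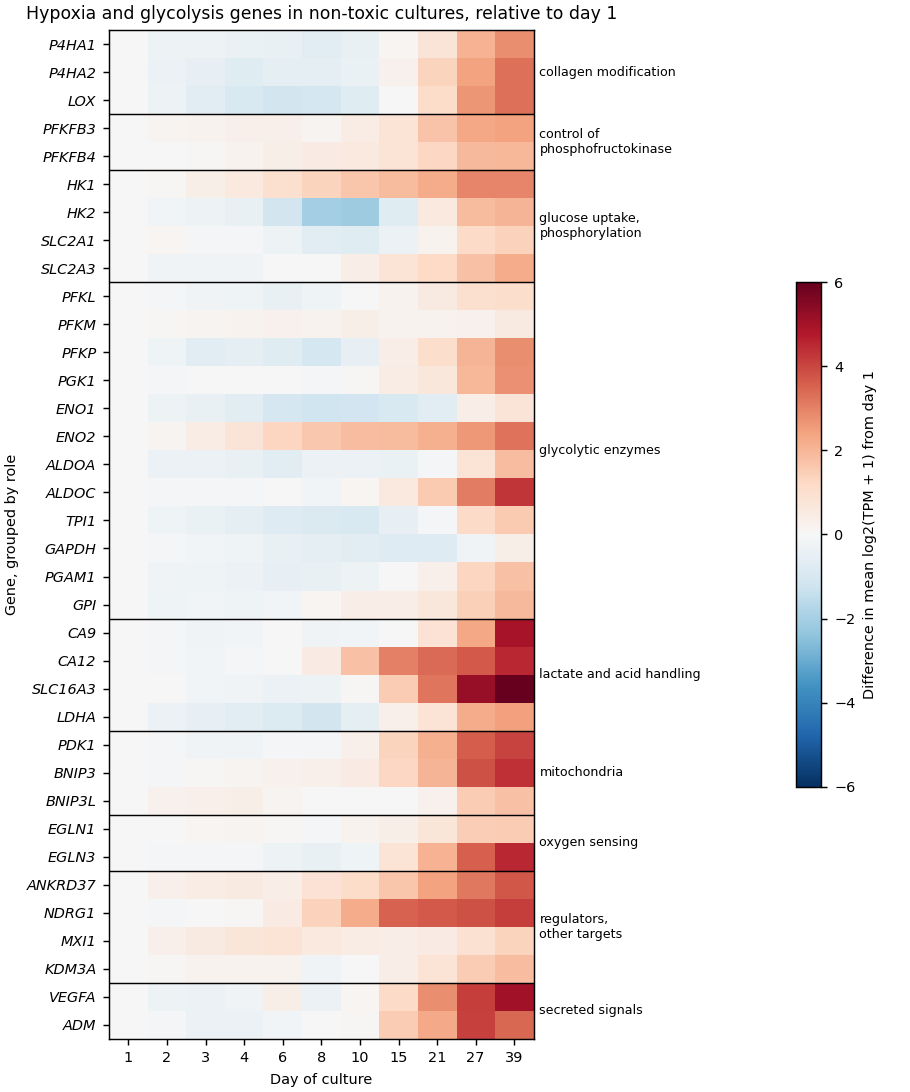
Mean log2(TPM + 1) of each of the 36 genes (rows, grouped by role) on each of the 11 days (columns) minus its mean on day 1, over the non-toxic libraries. HK2 and several glycolytic enzymes lie below their day 1 level on the middle days, and all 36 genes lie above it on day 39, by 0.35 for GAPDH to 6.18 for SLC16A3.

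The rise began at different times. All libraries of day 15 lay above all libraries of day 10 for 7 members (CA12, SLC2A3, PFKP, NDRG1, LDHA, PGAM1 and ADM). For 19 members day 21 was the earliest such day, for 8 day 27, among them CA9, and for GAPDH day 39, while for PFKM no day had this separation. These counts cover the members alone, without the share of all genes, so they do not set the members apart from other genes. By limma, 49.6% of all genes were higher on day 21 than on day 10. GAPDH and PFKM moved least, with day 39 minus day 1 log2 differences of 0.35 ± 0.03 and 0.52 ± 0.05 (SE, as for all log2 differences below).

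Of the oxygen-sensing pair, EGLN3, a HIF prolyl hydroxylase that is itself a known HIF target, had medians of 1.21, 0.79, 8.21, 25.4 and 49.7 TPM on days 1, 10, 21, 27 and 39. Its day 39 libraries spanned 44.9 to 57.5 TPM and its day 1 libraries 0.56 to 1.75 TPM, a log2 difference of 4.54 ± 0.11 (limma adjusted p 4.83e-77). EGLN1, the main prolyl hydroxylase under normal oxygen, rose less, with 55.5 to 68.7 TPM on day 39 against 19.4 to 23.1 TPM on day 1 and a log2 difference of 1.52 ± 0.07 (adjusted p 1.33e-44). The libraries of the 2 days did not overlap for either gene.

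The secreted signals rose strongly after day 10. VEGFA, the endothelial growth factor, had medians of 7.82, 8.28, 22.6, 53.1, 154 and 280.3 TPM on days 1, 10, 15, 21, 27 and 39, and the day 39 minus day 1 log2 difference was 5.04 ± 0.12 (limma adjusted p 2.44e-80). ADM, which encodes the vasodilator peptide adrenomedullin, had medians of 1.03 and 1.01 TPM on days 1 and 10, peaked on day 27 with 18.6 to 47 TPM (median 32) and had 14.8 to 31.3 TPM (median 18.7) on day 39. The day 39 libraries of ADM overlapped those of day 27, whereas the day 39 libraries of VEGFA lay above all earlier ones.

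Of the genes of glucose uptake and phosphorylation, HK2 and SLC2A1 were lower on day 10 than on day 1 and then rose. HK1 and SLC2A3 were higher at each step tested. HK2, the hexokinase isozyme known from dividing and hypoxic cells, had 2.31 to 14 TPM (median 3.07) on day 10 against 17.1 to 22.5 TPM (median 18.9) on day 1, and fell by 2.15 ± 0.14 on the log2 scale (limma adjusted p 1.02e-31). It then rose to medians of 31, 76.3 and 84.8 TPM on days 21, 27 and 39. HK1, the isozyme that prevails in brain, had 125 to 147 TPM on day 10 against 38.8 to 45.8 TPM on day 1, a log2 difference of 1.66 ± 0.05 (adjusted p 1.55e-65). The hexokinase pair thus moved in opposite directions up to day 10 and in the same direction after it. SLC2A1, the glucose transporter GLUT1, fell by 0.74 ± 0.07 by day 10 (25.8 to 39.2 TPM, against 41.6 to 51.9 TPM on day 1) and reached 118 to 142 TPM on day 39. SLC2A3, the neuronal high-affinity transporter GLUT3, had medians of 18.8, 24.7, 43.8 and 90 TPM on days 1, 10, 21 and 39.

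The control enzymes of phosphofructokinase also rose. PFKFB3, which makes the activator fructose 2,6-bisphosphate, had medians of 43.5, 60.8, 147, 215 and 229.5 TPM on days 1, 10, 21, 27 and 39, and PFKFB4 had 17.2, 26.6, 42.7, 71.3 and 69.2 TPM. Their day 39 minus day 1 log2 differences were 2.41 ± 0.07 and 1.98 ± 0.05 (limma adjusted p 1.43e-71 and 2.75e-76).

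Among the glycolytic enzymes, several with the highest levels dipped before they rose. ENO1, a broadly expressed enolase, had 671 to 867 TPM (median 751) on day 10 against 1651 to 1779.8 TPM (median 1729.7) on day 1, and fell by 1.17 ± 0.04 (limma adjusted p 7.66e-67), before reaching 2854 to 3074 TPM on day 39. TPI1, triosephosphate isomerase, fell by 0.93 ± 0.05 and GAPDH by 0.62 ± 0.03 between the same days. GAPDH, often used as a constant reference gene, had medians of 5408, 3439, 3178, 4560.3 and 6930.3 TPM on days 1, 10, 21, 27 and 39. ENO2, the neuronal enolase, rose by day 10 instead (473 to 570.2 TPM, against 133 to 153 TPM on day 1, log2 difference 1.86 ± 0.03, adjusted p 3.37e-104). PGK1, phosphoglycerate kinase, had 203 to 281 TPM on day 10 and 203 to 226 TPM on day 1, a log2 difference of 0.06 ± 0.05 (adjusted p 0.21), and reached 1359 to 1589.7 TPM on day 39. ALDOC, the brain aldolase, had 219 to 309 TPM on day 39 against 9.28 to 15 TPM on day 1 (log2 difference 4.27 ± 0.08, adjusted p 1.46e-93). ALDOA, PGAM1, GPI, PFKL, PFKP and PFKM had day 39 minus day 1 log2 differences of 1.87, 1.78, 1.95, 1.07, 2.78 and 0.52.

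Lactate and acid handling held the largest log2 difference of the set. SLC16A3, the lactate exporter MCT4, was at 0.46 to 2.19 TPM on day 1 and at 0 to 6.46 TPM on day 10, and had medians of 18.8, 70.1 and 133 TPM on days 21, 27 and 39. Its day 39 minus day 1 log2 difference of 6.18 ± 0.16 (limma adjusted p 1.27e-74) understates the ratio of medians of 171, since 1 TPM was added before the logarithm. CA9, a carbonic anhydrase used as a tissue marker of hypoxia, was at 0 to 0.97 TPM on day 15 and had medians of 1.7, 6.82 and 42.5 TPM on days 21, 27 and 39 (day 39 minus day 1 4.96 ± 0.12, adjusted p 3.09e-79). CA12, a related carbonic anhydrase, rose earlier, with 24.2 to 39.1 TPM on day 10 against 6.67 to 10.2 TPM on day 1, and had a median of 229.8 TPM on day 39. LDHA, lactate dehydrogenase A, fell by 0.60 ± 0.07 by day 10 (median 93.3 TPM, against 147 TPM on day 1) and reached a median of 809 TPM on day 39 (log2 difference to day 1 2.45 ± 0.07, adjusted p 4.03e-71).

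The mitochondrial members rose late. PDK1, the kinase that shuts pyruvate out of the citrate cycle, had medians of 4.76, 5.8, 23.1, 70.4 and 95.7 TPM on days 1, 10, 21, 27 and 39 (day 39 minus day 1 4.07 ± 0.11, limma adjusted p 1.97e-75). BNIP3, a mitophagy receptor and known HIF target, had medians of 39.6, 53.4, 163, 609 and 837 TPM (4.36 ± 0.07, adjusted p 1.7e-101). Its homologue BNIP3L had 102, 105, 128, 301 and 353 TPM on those days, with its largest step between days 21 and 27.

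The collagen-modifying members are LOX (lysyl oxidase) and P4HA1 and P4HA2 (catalytic subunits of collagen prolyl hydroxylase). Their day 10 minus day 1 log2 differences were -0.71 ± 0.09, -0.47 ± 0.06 and -0.40 ± 0.09 (limma adjusted p 4.7e-13, 2.66e-12 and 3.54e-05), and their medians on day 39 were 64.7, 162 and 67.8 TPM, against 5.74, 22.4 and 5.7 TPM on day 1. Among the remaining members, NDRG1, a stress and differentiation gene, was already at 25.6 to 30.4 TPM on day 10 against 4.08 to 7.62 TPM on day 1 (2.23 ± 0.06, adjusted p 9e-76), and gained 0.45 ± 0.06 on day 39 against day 21. ANKRD37, a small ankyrin protein induced by HIF, had medians of 0.65, 2.43 and 21.3 TPM on days 1, 10 and 39. MXI1, a repressor that antagonises MYC, and KDM3A, a histone demethylase, had day 39 minus day 1 log2 differences of 1.35 ± 0.05 and 1.87 ± 0.07.

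The shares of paired enzyme genes within a library, on the TPM scale, shifted over the same days. The log2 ratios behind them were tested by a two-sided permutation test with 100000 resamples over 22 comparisons, where 2e-05 is the smallest p the resamples can give (2.44e-05 after Benjamini-Hochberg adjustment). HK2 made up 2.77% ± 1.91 (SD, n = 15) of the summed HK1 and HK2 TPM on day 10 against 31.1% ± 2.29 (SD, n = 16) on day 1, and 19.9% ± 1.99 (SD, n = 14) on day 39 (both permutation p adjusted 2.44e-05). ENO2 made up 40.3% ± 1.28 (SD) of the enolase TPM on day 10 against 7.57% ± 0.241 on day 1, and 31.7% ± 1.8 on day 39. PFKP made up 12.2% of the PFKP and PFKM sum on day 10 against 20.5% on day 1, and 55.8% on day 39. Over the 3 phosphofructokinase genes, PFKM, the muscle-type subunit, held 45.1%, 58.3% and 27.2% on days 1, 6 and 39, and PFKP, the platelet type, 11.6%, 7.34% and 34.4%. The libraries of days 1, 10 and 39 did not overlap in the HK2, ENO2 and PFKP shares.

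Of the further shares, those of EGLN3, BNIP3 and CA9 were far higher on day 39 than on day 10. On day 39 EGLN3 made up 45% of the EGLN pair, BNIP3 70.4% of the BNIP3 and BNIP3L pair and CA9 17% of the CA9 and CA12 pair. The same shares were 3.41%, 34.4% and 1.06% on day 10 (each permutation p adjusted 2.44e-05). The SLC2A3 share moved more before day 10 than after it. SLC2A3 made up 46% of the SLC2A1 and SLC2A3 pair on day 10 against 27.7% on day 1, and 41.7% on day 39 (permutation p adjusted 0.00143 for the later step). P4HA2 made up 20.3% of the P4HA pair on day 10 and 20.3% on day 1, a step that did not pass the test (permutation p adjusted 0.522), and 28.8% on day 39.

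The other genes of these pathways did not all follow the members. Of 20 further known HIF targets, 18 were higher and 1 lower on day 39 against day 1 by limma (median log2 difference 2.09), where 44.3% of all genes were higher and 39.3% lower. ANGPTL4, which encodes a lipase inhibitor, gained 4.83 ± 0.23 and STC2, a secreted glycoprotein gene, 3.97 ± 0.10. Of 9 genes of the HIF machinery 3 were higher and 5 lower over the same interval: EPAS1, which encodes HIF-2 alpha, gained 3.98 ± 0.07, HIF1A had -0.49 ± 0.12 and its partner ARNT -0.78 ± 0.07. The HIF machinery counts are not far from the shares of all genes. Of 15 citrate cycle and pyruvate dehydrogenase genes 4 were higher and 9 lower (median -0.12), and of 7 pentose phosphate genes 0 were higher and 6 lower (median -0.34). The 8 remaining glycolysis genes that were tested, of 10 listed, had 3 higher and 3 lower, and PKM2, the pyruvate kinase gene, gained 0.36 ± 0.03.

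Within a day the non-toxic libraries also differed from one another in these genes. On day 10 the DMSO library had 14 TPM of HK2 and 6.46 TPM of SLC16A3, the highest of the 15 libraries, and on day 6 the aspirin library had 19.9 TPM of HK2 and 20.8 TPM of VEGFA, again the highest. On day 15 the Ficoll 400 library was highest in both, with 31 and 42.9 TPM. After removal of the day means, the median Pearson correlation between pairs of members was 0.366 over all non-toxic libraries, the outlying ibuprofen library of day 8 included, and 0.535 over the 45 libraries of days 10, 15, 21 and 27. The median correlation of all genes with the members' mean, which is another quantity than a correlation between pairs, was 0.194 and -0.028 over the same sets. Over all non-toxic libraries, the 10 genes outside the set closest to the members' mean were DDIT4 (0.785), PKM2 (0.742), STC2 (0.734), SLC16A1 (0.702), PAICS (0.699), FGF11 (0.690), AK4 (0.671), RLF (0.668), PLOD2 (0.665) and VDAC1 (0.662). Over the 45 libraries the closest were DDIT4 (0.939), STC2 (0.88), FAM162A (0.88), FGF11 (0.84) and HILPDA (0.83). AK4, TNIP1, NIM1, FAM115C and ZNF395 followed, at 0.79 to 0.72. PKM2, SLC16A1, PAICS, RLF, PLOD2 and VDAC1 were not among the closest 10 there, so the list depends on the libraries used. PGK1 followed the other members most closely over all days (0.866) and ANKRD37 least (0.021). Over the 45 libraries PDK1 did so most closely (0.949) and PFKM least (-0.086). These correlations are over libraries that share days, and are given as a description.

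In the first 6 days the response depended on the compound. Arsenic, okadaic acid, cytosine beta-D-arabinofuranoside (AraC) and busulfan raised most members. Each compound was set against the non-toxic libraries of the same days. The non-toxic compounds, each set against the other non-toxic ones in the same way, called no member with 2 exceptions. DMSO had 0 members higher and 3 lower on days 1 to 6 (0.196% and 0.895% of all genes), and ibuprofen 1 higher and 7 lower on days 8 to 39 (3.27% and 38.7%), with 7 higher and 1 lower once each library was centred and 0 lower without its day 8 library. Across the 28 toxic compounds with at least 3 early libraries, SLC2A3 was higher in 12 and lower in 1, P4HA2 higher in 11 and lower in 1, ADM higher in 10 and lower in 0 and P4HA1 higher in 10 and lower in 0. PFKL was higher in 2 and lower in 17, ENO1 higher in 6 and lower in 16, MXI1 higher in 1 and lower in 13 and EGLN1 higher in 2 and lower in 12. These comparisons share the same non-toxic libraries.

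**Figure D2:**
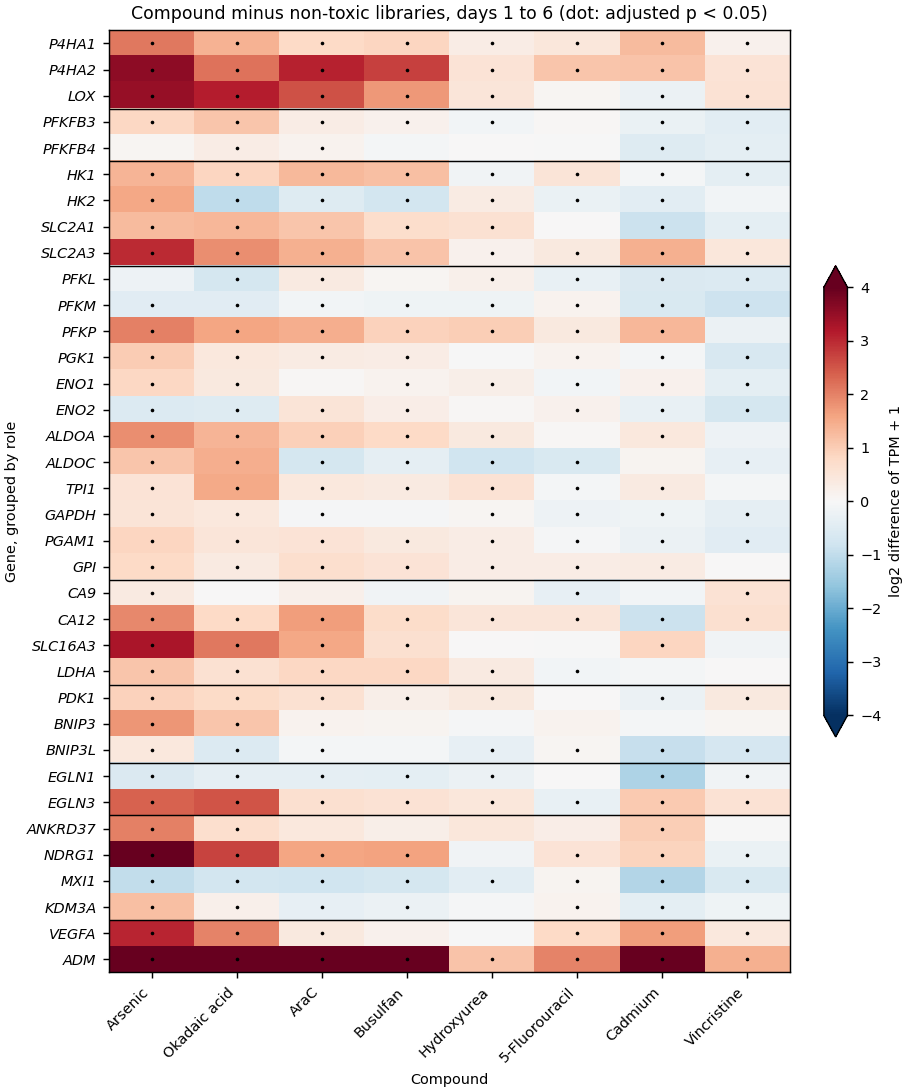
Log2 difference of each of the 36 genes (rows) between 8 toxic compounds (columns) and the non-toxic libraries on days 1 to 6, with a dot where the limma adjusted p was under 0.05. Arsenic has 30 genes higher and 4 lower, and HK2 is positive for arsenic (1.56) and negative for okadaic acid (-1.03), AraC (-0.52) and busulfan (-0.73).

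Arsenic at 5 µM, a metalloid that reacts with protein thiols, had 30 members higher and 4 lower, where 34.5% of all genes were higher and 46.4% lower, and the median log2 difference was 1.15 over the members and -0.11 over all genes. ADM had 239, 249, 289, 329.7 and 309 TPM in the arsenic libraries of days 1, 2, 3, 4 and 6, against 0 to 2.23 TPM in the non-toxic libraries of those days, a log2 difference of 7.42 ± 0.17 (limma adjusted p 4.63e-56). NDRG1 was at 93.9 to 133 TPM in arsenic, against 3.32 to 9.45 TPM (4.15 ± 0.10, adjusted p 2.96e-55). Both genes lay far above every non-toxic library on each day. P4HA2, LOX, SLC16A3, VEGFA and SLC2A3 were higher by 3.56 ± 0.15, 3.47 ± 0.15, 3.26 ± 0.21, 3.04 ± 0.11 and 2.98 ± 0.07. Some of these were high at once and others climbed. VEGFA had 99.5 TPM and SLC2A3 179 TPM on day 1, their highest value in arsenic, whereas SLC16A3 had 7.43 TPM on day 1 and 55.2 TPM on day 6. LDHA had 114 TPM in arsenic on day 1, below the non-toxic 138 to 155 TPM, and 441 TPM on day 6, above the non-toxic 71.2 to 93.3 TPM.

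Most glycolytic enzymes rose in arsenic as well. ALDOA had 1556 to 1895 TPM in arsenic, against 343 to 624 TPM in non-toxic libraries (1.86 ± 0.04, limma adjusted p 3.31e-57), and PFKP, HK2, HK1 and PGK1 were higher by 2.02 ± 0.07, 1.56 ± 0.11, 1.35 ± 0.04 and 1.03 ± 0.05. MXI1, EGLN1, ENO2 and PFKM fell by 0.99 ± 0.04, 0.59 ± 0.06, 0.54 ± 0.04 and 0.45 ± 0.04, and PFKFB4 (0.09) and PFKL (-0.19) did not pass the test. CA9 reached an adjusted p of 0.0348 at 0.36 ± 0.16, with 3.03 TPM in arsenic on day 6, but had -0.52 with the length trend as a covariate and -0.15 without the 2 arsenic libraries of low length trend. Of the 20 further HIF targets 13 were higher and 4 lower in arsenic, where 34.5% of all genes were higher and 46.4% lower. The 8 mesenchymal and endothelial genes summed to 19450 TPM in arsenic on day 6, against 467 to 598 TPM in non-toxic libraries, with 7 higher and 0 lower over days 1 to 6, and the 8 neuronal genes to 877 TPM against 5635 to 6426 TPM, with 0 higher and 7 lower. The 6 genes of dividing cells summed to 189 TPM in arsenic on day 1 and 332 TPM on day 6, against 1560 to 1644 and 645 to 774 TPM. Their part in the changes of the members was not tested.

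Okadaic acid at 3 nM, an inhibitor of the phosphatases PP1 and PP2A, had 28 members higher and 7 lower (34.7% and 39.4% of all genes), with a median log2 difference of 0.78. ADM had 14.8, 50.8, 269, 339 and 154 TPM on days 1, 2, 3, 4 and 6, against 0 to 2.23 TPM in non-toxic libraries (5.97 ± 0.27, limma adjusted p 1.21e-33). LOX, NDRG1, EGLN3 and VEGFA were higher by 3.13 ± 0.21, 2.70 ± 0.11, 2.52 ± 0.14 and 1.99 ± 0.11. HK2 moved the other way than in arsenic, with 13.4, 9.46, 5.5, 4.33 and 3.29 TPM in okadaic acid (-1.03 ± 0.09, adjusted p 9.44e-17), and PFKL and MXI1 fell by 0.71 ± 0.04 and 0.74 ± 0.08. EGLN1 and PFKFB4, at -0.37 and 0.29, had 0.026 and -0.051 with the length trend as a covariate. The neuronal genes summed to 1334 TPM in okadaic acid on day 6, against 5635 to 6426 TPM, and the mesenchymal and endothelial genes to 1159 TPM against 467 to 598 TPM. The summed 7 neural progenitor genes lay above the non-toxic libraries on every day, with 7980 TPM on day 1 and 5020 TPM on day 6, against 5691 to 6119 and 3503 to 3922 TPM. The dividing-cell genes summed to 1563 and 209 TPM on those days, against 1560 to 1644 and 645 to 774 TPM. The astrocyte genes summed to 265.8 and 743.6 TPM on the same days, against 282.3 to 311.8 and 253.5 to 305.6 TPM. The part of these cell types was not tested.

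AraC at 5 µM, a nucleoside that stops DNA synthesis, had 25 members higher and 8 lower (40.5% and 26.9% of all genes), and busulfan at 50 µg/ml, a DNA alkylator, had 22 higher and 6 lower (29.1% and 34.7%). In AraC, ADM had 7.51, 36.7, 50.5, 69.1 and 73.7 TPM on days 1, 2, 3, 4 and 6 (4.55 ± 0.23, limma adjusted p 2.71e-31), and in busulfan 3.87, 22.9, 59.2, 76.7 and 69.4 TPM (4.32 ± 0.26, adjusted p 4.73e-26), against 0 to 2.23 TPM in non-toxic libraries. P4HA2 reached 103 TPM in AraC and 96.7 TPM in busulfan on day 6, against 2.09 to 4.78 TPM, and LOX 78.4 and 57.4 TPM against 1.33 to 3.73 TPM. HK1 was higher by 1.31 ± 0.08 and 1.197 ± 0.07, while HK2 fell by 0.52 ± 0.09 and 0.73 ± 0.10 and MXI1 by 0.80 ± 0.05 and 0.71 ± 0.06. The 8 mesenchymal and endothelial genes summed to 8725 TPM in AraC and 11840 TPM in busulfan on day 6, against 467 to 598 TPM, and the part of such cells in the rise of the collagen-modifying members was not tested. The dividing-cell genes summed to 819 TPM in AraC and 296 TPM in busulfan on day 6, against 645 to 774 TPM. The neuronal genes summed to 2871 and 3494 TPM, against 5635 to 6426 TPM, and the astrocyte genes to 1181 and 898 TPM, against 253.5 to 305.6 TPM. The part of these cell types was not tested.

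Hydroxyurea at 250 µM, which blocks ribonucleotide reductase, and 5-fluorouracil at 10 µM, which blocks thymidylate synthesis, had smaller median differences. With hydroxyurea the counts were 19 members higher and 7 lower (29% and 21.5% of all genes). PFKP had 51, 45.8, 46.4, 54.2 and 54.7 TPM in hydroxyurea on days 1, 2, 3, 4 and 6, against 17.2 to 40 TPM over the non-toxic libraries of those days (0.99 ± 0.07, limma adjusted p 1.08e-22), TPI1 was higher by 0.57 ± 0.03, and ALDOC fell by 0.79 ± 0.09. With 5-fluorouracil the counts were 16 higher and 10 lower (34.6% and 16.1%). ADM had 1.61, 2.78, 4.69, 8.99 and 20.8 TPM, against 0 to 2.23 TPM (1.99 ± 0.22, adjusted p 8.92e-13), and P4HA2 and VEGFA were higher by 1.12 ± 0.14 and 0.81 ± 0.11. The mesenchymal and endothelial genes summed to 1874 TPM in hydroxyurea and 2073 TPM in 5-fluorouracil on day 6, against 467 to 598 TPM, and the dividing-cell genes to 1526 and 149 TPM against 645 to 774 TPM. Their part was not tested.

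Cadmium at 50 µM had 14 members higher and 18 lower, where 24.4% of all genes were higher and 59.1% lower, and the median of all genes was -0.40. With each library centred on its median deviation the counts were 31 and 5 and the median of all genes was 0.29, so the balance of directions depends on this scaling. The shares of all genes called in the centred fit are not given. ADM had 42.3, 190.3, 342, 246 and 62.1 TPM in cadmium on days 1, 2, 3, 4 and 6 (6.35 ± 0.23, limma adjusted p 1.45e-42), and VEGFA, SLC2A3, PFKP, P4HA1 and EGLN3 were higher by 1.67 ± 0.11, 1.43 ± 0.09, 1.33 ± 0.08, 1.26 ± 0.07 and 1.04 ± 0.13. EGLN1 had 6.22 to 10.7 TPM in cadmium, against 17.9 to 26.9 TPM (-1.24 ± 0.05), MXI1 20 to 35.2 TPM against 42.5 to 86.7 TPM (-1.17 ± 0.04), and BNIP3L 47.7 to 75.3 TPM against 98.7 to 143 TPM (-0.92 ± 0.04). The cadmium libraries did not overlap the non-toxic ones for these 3 genes, in a compound where 59.1% of all genes were called lower. The share of all genes without overlap is not given. The neural progenitor markers lay below the non-toxic range on days 1 to 4. The dividing-cell markers and the mesenchymal and endothelial ones did so on days 1 to 6. On day 6 these summed to 547 TPM against 645 to 774 TPM and to 447 TPM against 467 to 598 TPM. On day 1 the neural progenitor genes summed to 2237 TPM in cadmium, against 5691 to 6119 TPM, the dividing-cell genes to 262 TPM against 1560 to 1644 TPM and the astrocyte genes to 157 TPM against 282 to 312 TPM. The neuronal genes, at 3051 TPM against 2449 to 2776 TPM, were then above the non-toxic range, and on day 6, at 4598 TPM against 5635 to 6426 TPM, below it. The part of these cell types was not tested.

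Vincristine at 1 nM, which blocks microtubule assembly, had 10 members higher and 17 lower (32.3% and 37.2% of all genes). The lower count rested on the library of day 4, where PFKM had 11.2 TPM and BNIP3L 19.6 TPM, against 137 to 162 TPM and 122 to 143 TPM in non-toxic libraries, and without that library it was 7. Of the members called higher, ADM, CA12, P4HA1 and SLC2A3 passed the test without it. That library also stood apart in its markers. Its neuronal genes summed to 482 TPM and its neural progenitor genes to 658 TPM, against 4817 to 5393 and 4478 to 4902 TPM. Its pluripotency genes summed to 361 TPM and its microglial genes to 38.4 TPM, against 26.7 to 41 and 0 to 0.33 TPM, and the part of these differences was not tested. With each library centred the counts were 14 and 11, and the median of all genes was 0.19. The neuronal enolase ENO2 had 127, 143, 153, 67.7 and 161 TPM in vincristine (-0.70 ± 0.09, and -0.42 without the day 4 library), and ADM had 47.4 TPM on day 6, when the neuronal genes summed to 1725 TPM, against 5635 to 6426 TPM. Monosodium glutamate at 150 µM had 0 members higher and 24 lower by limma (3.33% and 49.9% of all genes), 6 and 3 with each library centred, and without its library of day 1 it had 1 lower. In that library SLC2A1 had 4.95 TPM, against 41.6 to 51.9 TPM, and the length slope was -0.8175. Its summed astrocyte, neuronal, neural progenitor, dividing-cell, mesenchymal and pluripotency markers all lay below the non-toxic range, and their part was not tested.

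The remaining compounds changed fewer members early. K252a at 30 nM, a broad kinase inhibitor, had 13 members higher and 7 lower (14.5% and 18.7% of all genes). Its VEGFA level was 42.2, 51.9, 49.6, 79.8 and 51.7 TPM on days 1, 2, 3, 4 and 6, against 4.11 to 20.8 TPM (2.78 ± 0.12, limma adjusted p 1.07e-35), so every K252a library lay above every non-toxic one. Lead acetate at 30 µM had 12 higher and 5 lower (16.3% and 20.2%), among them VEGFA (0.77 ± 0.11) and ADM (0.74 ± 0.17). The FGF receptor inhibitor PD166866 at 2.5 µM had 3 higher and 9 lower (11.1% and 8.41%), with VEGFA at 0.98 ± 0.11. The MEK inhibitor U0126 at 10 µM had 1 higher and 13 lower (5.96% and 24.9%), among them PFKP at -0.39 ± 0.06 and CA12 at -0.41 ± 0.07, and with each library centred 6 and 7. The protein kinase C inhibitor Bis-I at 4 µM had 6 higher and 11 lower (8.24% and 25%), and with each library centred 11 and 9. NDRG1 had 2.78, 1.93, 1.49, 1.48 and 2.68 TPM in Bis-I, against 3.32 to 9.45 TPM (-1.13 ± 0.10, adjusted p 6.23e-17).

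The retinoids lowered CA12 in the early days. (Trans) retinoic acid at 1.7 µM had 6 members higher and 7 lower on days 1 to 6 (18.6% and 20.6% of all genes), and isotretinoin, labelled Accutane or Isotretinoin, at 0.5 µg/ml had 5 higher and 11 lower (14.9% and 20.4%), or 6 and 7 with each library centred. CA12 had 5.53, 4.16, 2.07, 2.68 and 1.59 TPM in retinoic acid (-1.21 ± 0.09) and 6.48, 6.48, 3.66, 2.64 and 2.26 TPM in isotretinoin (-0.88 ± 0.09), against 6.47 to 10.6 TPM over the non-toxic libraries of those days. The retinoid doses are labelled in different units and were not converted, so the values stand side by side without a comparison. Dexamethasone at 100 µM, a glucocorticoid, had 6 higher and 6 lower (5.58% and 11.9%), with ALDOC at 34.5, 21.3, 18.3, 15.6 and 18.5 TPM, against 7.78 to 17.4 TPM (0.79 ± 0.10, limma adjusted p 6.42e-10). Amiodarone at 1 µg/ml, an antiarrhythmic drug, had 4 higher and 6 lower (4% and 8.92%), or 4 and 3 with each library centred.

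From day 15 most toxic libraries held less of the members than the non-toxic libraries of the same day, which were then in the steep part of their rise. The median deviation of the 36 members from the non-toxic day mean was below 0 in 21 of the 22 toxic libraries of day 27, with a median of -0.51 and a lowest value of -1.59. The non-toxic libraries of that day lay between -0.297 and 0.196, and 13 toxic libraries lay below all of them. On day 39, 19 of 22 toxic libraries lay below the lowest non-toxic one, with a median of -0.19. On day 8 all 20 toxic libraries were above 0. The ibuprofen library of day 8, at -0.685, lay below all other non-toxic libraries and enters that day's mean.

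**Figure D3:**
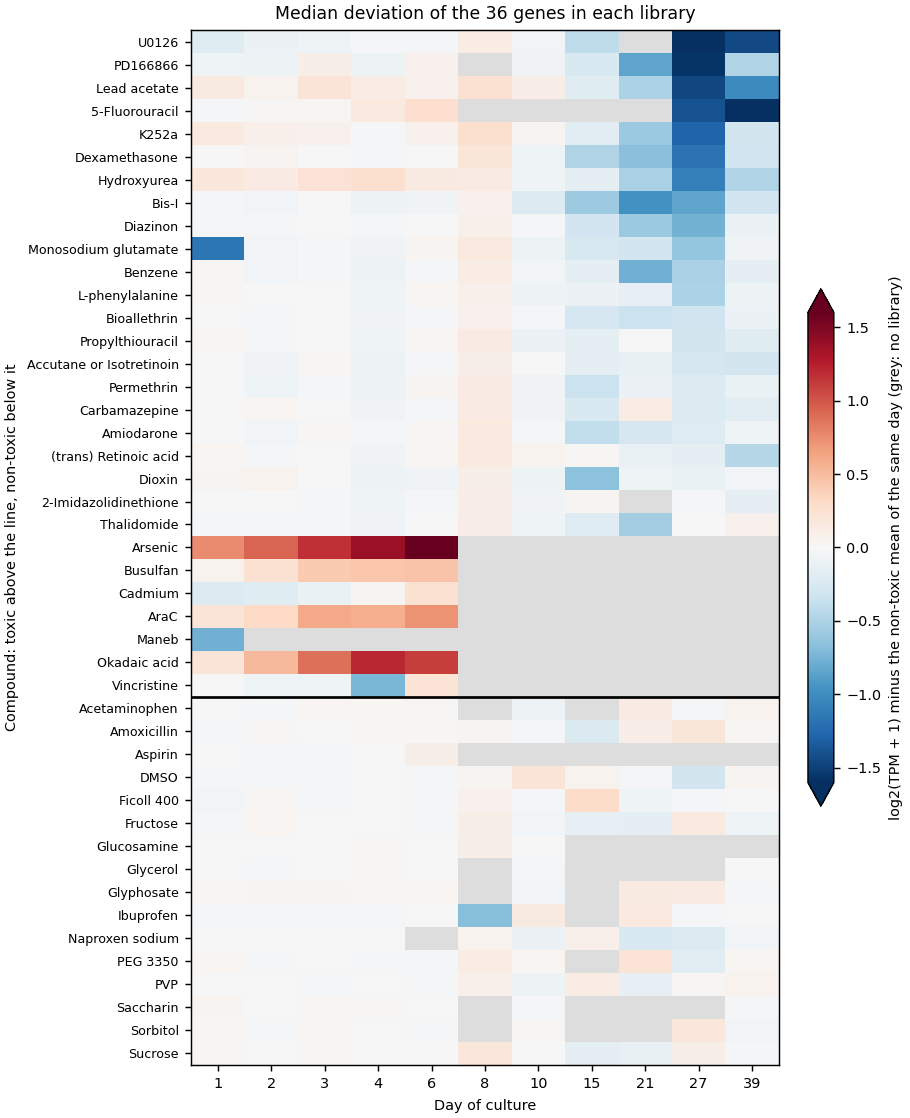
Median log2 deviation of the 36 genes from the non-toxic mean of the same day, for each compound (rows, toxic above non-toxic) and day (columns). Arsenic and okadaic acid are positive on days 1 to 6, most toxic compounds are negative from day 15, and the lowest value, -1.76, is that of 5-fluorouracil on day 39.

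U0126 had 0 members higher and 30 lower on days 8 to 39 by limma, where 3.63% of all genes were higher and 7.95% lower, and the median log2 difference was -0.76 over the members and -0.00040 over all genes. SLC16A3 had 0.84, 0.44, 0.34, 1.57 and 29.9 TPM in U0126 on days 8, 10, 15, 27 and 39. The non-toxic libraries had 39.7 to 96.3 TPM on day 27 and 124 to 145 TPM on day 39 (log2 difference over the window -1.80 ± 0.36, limma adjusted p 0.00022). VEGFA had 9.76 and 59.7 TPM in U0126 on days 27 and 39, against 109 to 209 TPM and 245 to 335 TPM (-1.74 ± 0.27, adjusted p 1.77e-06), and ADM and HK2 fell by 1.69 ± 0.27 and 1.63 ± 0.34. ENO1 had 796 and 1095 TPM against 1714 to 2721 TPM and 2854 to 3074 TPM (-0.71 ± 0.11), and PFKM, at 0.07 ± 0.10, did not pass the test (adjusted p 0.771). For each of SLC16A3, VEGFA and ENO1 the U0126 libraries of both days lay below every non-toxic one. Without the library of day 27, 15 members were lower.

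PD166866 had 1 member higher and 27 lower on days 10 to 39 (12.1% and 22% of all genes). SLC16A3 had 0.65, 1.3 and 90.4 TPM in PD166866 on days 21, 27 and 39, against 8.43 to 26, 39.7 to 96.3 and 124 to 145 TPM (-2.05 ± 0.38, limma adjusted p 1.88e-05). HK2, ADM, ANKRD37 and EGLN3 fell by 1.95 ± 0.33, 1.95 ± 0.25, 1.91 ± 0.23 and 1.39 ± 0.22. HK2 had 3.95 TPM on day 27 and 64.5 TPM on day 39, against 45.3 to 102 and 63.1 to 108 TPM. NDRG1 was the member that was higher (0.24 ± 0.06, adjusted p 0.00109), and had -0.0040 over days 21 to 39 alone. On day 27 the 9 astrocyte genes summed to 814 TPM in U0126 and 1725 TPM in PD166866, against 3043 to 3843 TPM in non-toxic libraries, and the mesenchymal and endothelial genes to 1319 and 3244 TPM against 4126 to 8421 TPM. Their part in the lower member levels was not tested.

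Lead acetate had 2 members higher and 22 lower (15.4% and 16.5% of all genes). PFKFB3 had 41, 37, 34.9, 27.1, 30.5 and 73 TPM in lead acetate on days 8, 10, 15, 21, 27 and 39, against 202 to 245 TPM in the non-toxic libraries of day 27 and 204 to 275 TPM of day 39 (-1.48 ± 0.16, limma adjusted p 1.69e-11). HK2 had 1.79 and 16.9 TPM in lead acetate on days 27 and 39, against 45.3 to 102 and 63.1 to 108 TPM (-2.02 ± 0.32, adjusted p 6.11e-07). CA12 moved the other way, with 221 and 284 TPM in lead acetate on days 27 and 39 against 107 to 139.9 and 195 to 259.8 TPM (0.42 ± 0.14, adjusted p 0.0122), and ALDOA was higher over the whole window (0.32 ± 0.10) but had -0.19 on days 21 to 39.

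K252a had 1 member higher and 24 lower (16.7% and 12.8% of all genes), and 13 lower without its day 27 library. PDK1 had 3.34, 6.65 and 65.1 TPM in K252a on days 21, 27 and 39, against 13.9 to 35.9, 48.4 to 98.6 and 83.5 to 109 TPM (-1.37 ± 0.22, limma adjusted p 6.63e-07), and SLC2A3 fell by 0.77 ± 0.12. VEGFA was the exception: it had 50.7, 47.5, 32.2, 39.1, 61.8 and 425 TPM in K252a on days 8, 10, 15, 21, 27 and 39, against 4.22 to 14.5 TPM on day 10, 109 to 209 TPM on day 27 and 245 to 335 TPM on day 39 (0.81 ± 0.27, adjusted p 0.0167, and -0.41 on days 21 to 39). It thus lay above the non-toxic libraries on days 10 and 39 and below them on day 27. Bis-I had 1 higher and 25 lower (8.97% and 25%). On day 27 the 9 astrocyte genes summed to 1820 TPM in K252a, 1166 TPM in Bis-I and 2734 TPM in lead acetate, against 3043 to 3843 TPM. The 8 mesenchymal and endothelial genes summed to 3325, 906 and 3231 TPM in the same libraries, against 4126 to 8421 TPM. The part of these cell types was not tested. In Bis-I, NDRG1 and CA12 fell by 1.32 ± 0.09 and 1.47 ± 0.15 (limma adjusted p 5.75e-19 and 3.64e-12), and LOX by 1.19 ± 0.17. GAPDH was higher in Bis-I by 0.30 ± 0.07, and had -0.012 without the libraries of low length trend.

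Hydroxyurea had 6 members higher and 21 lower on days 8 to 39 (23% and 16.9% of all genes). NDRG1 had 7.32, 9.19, 23.5, 22.9, 33.4 and 68.6 TPM in hydroxyurea on days 8, 10, 15, 21, 27 and 39, against 76.9 to 92.5 TPM on day 27 and 96.1 to 125 TPM on day 39 (-1.28 ± 0.07, limma adjusted p 3.03e-25). BNIP3 had 94.5 and 425 TPM on days 27 and 39, against 437 to 676 and 784 to 872 TPM (-1.07 ± 0.15). Both genes were below the non-toxic range on these days. P4HA2 was higher by 0.68 ± 0.13, whereas the other members called higher (PFKP, LOX, SLC2A1, ALDOA and GAPDH) had differences of -0.094, -0.00013, -0.23, -0.028 and -0.025 over days 21 to 39. The mesenchymal and endothelial genes summed to 3605 and 7310 TPM in hydroxyurea on days 10 and 21, against 501 to 705 and 1919 to 3333 TPM. On day 39, at 8076 TPM, they lay within the non-toxic 4238 to 8274 TPM. On day 8 the dividing-cell genes summed to 1321 TPM, against 198 to 450 TPM, and the neuronal genes to 4306 TPM against 5967 to 7928 TPM. The part of these cell types was not tested. Dexamethasone had 1 higher and 20 lower (3.15% and 5.66%), with HK2 at 1.53 and 8.01 TPM on days 21 and 27, against 14.3 to 55 and 45.3 to 102 TPM (-1.50 ± 0.30, adjusted p 0.000225), and ALDOC higher by 0.50 ± 0.14. Its lower count was 8 without days 15 and 21, 13 without its day 21 library and 11 without its day 27 library.

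The late retinoid libraries changed members in both directions. Retinoic acid had 7 members higher and 11 lower (20.1% and 23% of all genes) and isotretinoin 6 higher and 13 lower (19.3% and 16.9%). CA12 had 2.22, 3.13, 5.46, 5.51, 11.6 and 23.4 TPM in retinoic acid on days 8, 10, 15, 21, 27 and 39 (-3.20 ± 0.15, limma adjusted p 9.24e-30) and 26.3 and 44.3 TPM in isotretinoin on days 27 and 39 (-2.25 ± 0.14, adjusted p 6.23e-23), against 107 to 139.9 and 195 to 259.8 TPM in the non-toxic libraries of those days. NDRG1 fell by 2.10 ± 0.13 and 1.93 ± 0.16 over the window, with 19.8 and 77 TPM in retinoic acid and 25 and 128 TPM in isotretinoin on days 27 and 39, against 76.9 to 92.5 and 96.1 to 125 TPM. The isotretinoin library of day 39 thus lay above every non-toxic one. ALDOC rose, with 644 TPM in retinoic acid and 747 TPM in isotretinoin on day 39 against 219 to 309 TPM (1.40 ± 0.18 and 1.39 ± 0.15, adjusted p 5.78e-10 and 5.32e-12). So did CA9, with 78.1 TPM in retinoic acid and 129 TPM in isotretinoin on day 39 against 36.2 to 65.3 TPM (1.06 ± 0.19 and 0.72 ± 0.19). The carbonic anhydrase pair thus moved in opposite directions under both retinoids. The mesenchymal and endothelial genes summed to 1427 and 1669 TPM in retinoic acid and isotretinoin on day 27, against 4126 to 8421 TPM, and their part was not tested.

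Benzene at 50 µg/ml and amiodarone had few late calls, and these depended on the libraries used. Benzene had 0 members higher and 9 lower by limma (5.64% and 3.22% of all genes). Its lower count was 20 without its day 8 library or without ibuprofen among the non-toxic compounds, 1 without day 21, 3 without day 27 and 0 without days 15 and 21. Amiodarone had 3 higher and 6 lower (5.29% and 13%), and its lower count was 19 without its day 8 library, 18 without ibuprofen and 0 without day 15 or without day 21. CA9 in amiodarone had 123 TPM on day 39, against 36.2 to 65.3 TPM.

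The day 27 libraries were also described singly. K252a had 36 members below every non-toxic library of that day, where 20.3% of all genes were so, and U0126 had 35 (25.3%). Dexamethasone, lead acetate, hydroxyurea, PD166866, Bis-I and diazinon at 10 µM each had 34, where 14.3%, 23.5%, 23.2%, 15.6%, 21.5% and 9.85% of all genes lay below. Monosodium glutamate had 31 (7.16%), L-phenylalanine at 1 mM 30 (8.16%) and benzene 29 (7.49%). These counts describe a library against a range, without a test. Over days 8 to 39, limma called 0 members higher and 0 lower for monosodium glutamate (18 lay under an unadjusted p of 0.05), 0 higher and 0 lower for L-phenylalanine (9 under 0.05) and 0 higher and 1 lower for diazinon, where 0.0123% and 0.00613%, 0.00613% and 0.00613% and 0.239% and 0.264% of all genes were called higher and lower. These fits depended on the libraries used: the lower counts were 4 for monosodium glutamate, 5 for L-phenylalanine and 23 for diazinon without ibuprofen, and 5, 12 and 22 without the day 8 library of each compound.

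Toxic and non-toxic compounds as classes differed in the late days. On days 1 to 6, with 1 value per compound (28 toxic and 16 non-toxic), limma called 0 members higher and 0 lower (0.0981% and 0.484% of all genes), and 11 members had an unadjusted p under 0.05. On days 8 to 39 (21 toxic and 12 non-toxic compounds), 0 higher and 17 lower were called (5.09% and 12.5%), with a median log2 difference of -0.25 over the members and -0.024 over all genes, and 5 lower without days 15 and 21. Fitted day by day, the classes gave 1 higher and 14 lower on day 15 (3.44% and 10.6%), 2 higher and 18 lower on day 21 (10.6% and 46.2%), 0 higher and 24 lower on day 27 (3.04% and 2.03%) and 0 higher and 18 lower on day 39 (15.3% and 16.2%). The lower count of day 21 was 1 with the length trend as a covariate and 2 without the libraries of low length trend, and with each library centred the counts were 6 and 11. That of day 15 was 5 and 8 under the length alternatives, and that of day 27 was 15 with the covariate. The median length slope of the toxic libraries was -0.334 on day 21 and -0.0123 on day 27. The per-day fits were added after the data had been seen. The classes also carry different series of sample titles, whose meaning is not stated, so the class and whatever the titles mark cannot be told apart.

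On day 27 the lactate exporter had the largest class difference. SLC16A3 had 1.11 to 79.4 TPM (median 33.1) in the toxic libraries and 39.7 to 96.3 TPM (median 70.1) in the non-toxic ones, a log2 difference of -1.84 ± 0.52 (limma adjusted p 0.0361). HK2 and PDK1 fell by 1.58 ± 0.45 and 1.32 ± 0.34 (adjusted p 0.0382 and 0.0224). PFKFB3 had 30.5 to 208 TPM (median 148.3) in toxic libraries, 20 of 22 below the non-toxic range of 202 to 245 TPM (-0.95 ± 0.25, adjusted p 0.0256). MXI1 differed less but more regularly, with 44.2 to 81 TPM and 21 of 22 toxic libraries below the non-toxic 78.1 to 96.1 TPM (-0.42 ± 0.07, adjusted p 0.00391). PFKM, with medians of 154 and 155 TPM in toxic and non-toxic libraries, and CA9 and VEGFA did not pass the test on that day (adjusted p 0.879, 0.137 and 0.0648).

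On day 39 the mitophagy receptors separated the classes without overlap. BNIP3 had 117 to 782 TPM (median 655) in the 22 toxic libraries and 784 to 872 TPM (median 837) in the 14 non-toxic ones (-0.64 ± 0.18, limma adjusted p 0.0076). BNIP3L had 119 to 284 TPM (median 249) in toxic libraries and 319.6 to 371 TPM (median 353) in non-toxic ones (-0.64 ± 0.09, adjusted p 2.17e-06). In 1.21% of all genes every toxic library of day 39 lay below every non-toxic one, and BNIP3 and BNIP3L were the members that did. SLC2A3 had a log2 difference of -0.84 ± 0.14 on that day, with 16 of 22 toxic libraries below the non-toxic range. CA9 ranged over 0 to 129 TPM (median 39.4) in toxic libraries, around the 36.2 to 65.3 TPM (median 42.5) of the non-toxic ones.

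**Figure D4:**
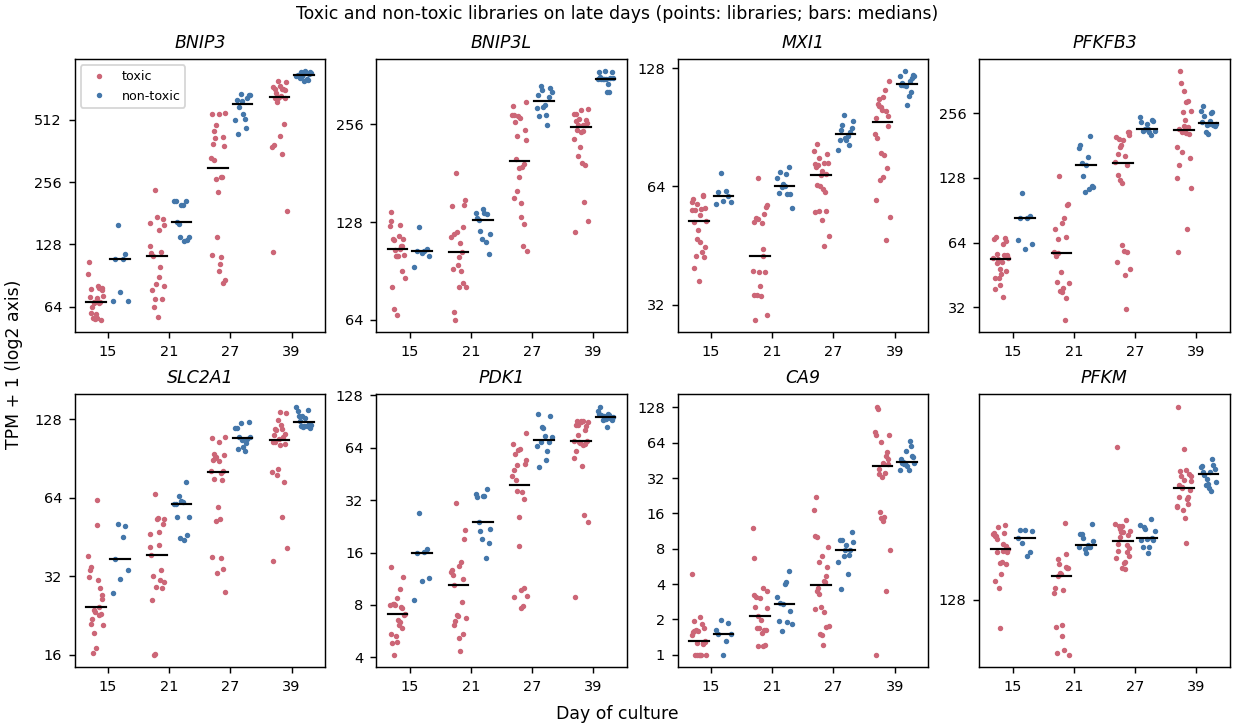
TPM of 8 members in the toxic (left) and non-toxic (right) libraries of days 15, 21, 27 and 39, with a point per library. For BNIP3 and BNIP3L all 22 toxic libraries of day 39 lie below the 14 non-toxic ones, and for MXI1 21 of 22 toxic libraries of day 27 lie below the non-toxic range.

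The other lists moved differently between the classes. Of 20 further HIF targets, 0 were higher and 11 lower on days 8 to 39, and 0 were higher and 10 lower on day 27 by limma, among them FAM162A (-1.09 ± 0.23), HILPDA (-0.97 ± 0.23) and DDIT4 (-0.97 ± 0.25). Of 15 citrate cycle genes 5 were higher and 0 lower on day 27, and of 7 pentose phosphate genes 3 were higher and 0 lower on days 8 to 39. The 9 genes of the HIF machinery had 0 higher and 1 lower on days 8 to 39. Of all genes, 5.09% were higher and 12.5% lower on days 8 to 39, and 3.04% and 2.03% on day 27. The summed astrocyte markers had medians of 3051 TPM in toxic and 3402 TPM in non-toxic libraries on day 27 and 4198 and 4980 TPM on day 39, and the mesenchymal and endothelial ones 3919 and 5673 TPM on day 27 and 7233 and 6679 TPM on day 39. On day 39 the neural progenitor genes had medians of 3825 TPM in toxic and 5238 TPM in non-toxic libraries, and the dividing-cell genes 226 and 184 TPM. The part of these cell types in the class differences was not tested.

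A pair of toxic compounds had too few libraries for a test in a window. 5-fluorouracil had 34 and 34 of 36 members below every non-toxic library on days 27 and 39, where 24.3% and 24.6% of all genes lay below. SLC16A3 had 1.11 and 0.57 TPM in these libraries, against 39.7 to 96.3 and 124 to 145 TPM, LDHA 142 and 119 TPM against 518 to 829.8 and 774 to 885 TPM, and PFKM 208 and 238 TPM, above the non-toxic 147.7 to 165 and 181 to 200.5 TPM. Maneb at 60 µM had a library on day 1 only, with 23 members below every non-toxic library, where 69% of all genes lay below, a larger share than of the members. The length slope of this library was -0.848, the lowest of all libraries, and its part was not tested. In it SLC2A3 had 3.71 TPM against 15.8 to 21.2 TPM, while ADM had 6.06 TPM against 0 to 2.23 TPM and PGK1 306 TPM against 203 to 226 TPM.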

How the data were processed

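RNA was extracted on 96-well columns and made into TruSeq v2 libraries, per the labels' protocols. The authors deposited a table of TPM (transcript abundance per length, scaled to one total) with 1 column per library, and the submitters' processing notes name CASAVA 1.8.2, Bowtie 0.12.8, RSEM 1.2.1 and the build hg19. TPM keeps no read depth, so no count test was run. Values were taken as log2(TPM + 1), genes were kept when 5 or more libraries reached 1 TPM (16318 of 19084), and limma 3.58.1 in R 4.3.3 with an intensity trend was fitted on all of them, with Benjamini-Hochberg adjustment and a threshold of 0.05. The time fit used the non-toxic libraries alone, with a level for each day. In 2 windows, days 1 to 6 and 8 to 39, limma compared every compound having 3 or more libraries with non-toxic wells of the same days, days entering as levels and the correlation within a compound (0.0389 and 0.036) as a random effect. The classes were fitted on 1 value per compound. Shares of paired genes were tested with scipy 1.17.1. The length trend of a library used GENCODE release 29 lengths, found for 9570 of 10290 genes (93%). Tests were run on simulated data before use. Compounds were described gene by gene where at least 9 of the 36 members were called, and the late fits of 3 further compounds are given as counts. Alternatives were another pseudocount (0.1 TPM), no filter, centred libraries, no intensity trend, the block added or dropped, the length trend, and libraries or days left out. The fits per day, the late window of days 21 to 39 and the counts for compounds with few libraries were added after seeing the data. The members and gene lists were chosen with earlier results of these data known.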

Additional observations from a re-analysis of the deposited data

Results flagged for a closer look

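Of 31 groups of 4 to 10 libraries tested for an outlying library, 2 had one, and chance alone gives about 1 in 20. The first was monosodium glutamate on days 1 to 6, where the median deviation of the 36 members was -1.15 in the library of day 1, far from its other libraries. The length slope of that library was -0.8175, and its part was not tested. The other was the ibuprofen library among the non-toxic libraries of day 8, with a median member deviation of -0.685 and a length slope of -0.7145, and its part was not tested.

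Some libraries lay outside the fitted comparisons. 5-fluorouracil had 34 members below every non-toxic library on day 27 and 34 on day 39, where 24.3% and 24.6% of all genes lay below. Maneb had 23 on day 1, where 69% of all genes lay below, a larger share than of the members, and its library had a length slope of -0.848, whose part was not tested. These are counts without a test.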

How the results depend on the processing

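The over-time counts (14 higher and 13 lower, 33, 36 and 36 higher) were the same with compound as a replicate block, which changed none of 134 gene calls, and dropping the replicate block from the compound fits ended none of 644, but raised the late lower count to 13 for diazinon and to 1 for monosodium glutamate. For the counts and genes below the cause was not tested. Without days 15 and 21, the lower count was 5 for the classes on days 8 to 39, 15 for Bis-I, 8 for dexamethasone, 0 for benzene, 0 for amiodarone and 0 for diazinon. Restricted to days 21 to 39 it was 18 for retinoic acid, 17 for amiodarone, 20 for benzene, 32 for dexamethasone, 25 for diazinon, 17 for late monosodium glutamate, 16 for L-phenylalanine and 0 for ibuprofen. In that window hydroxyurea turned to -0.028 for ALDOA, -0.025 for GAPDH, -0.00013 for LOX, -0.094 for PFKP and -0.23 for SLC2A1, K252a to -0.41 for VEGFA, lead acetate to -0.19 for ALDOA, PD166866 to -0.0040 for NDRG1, and ibuprofen to 0.012 for CA12, 0.085 for EGLN1 and 0.029 for HK1. Without ibuprofen the lower count was 18 for amiodarone, 20 for benzene, 23 for diazinon, 4 for late monosodium glutamate and 5 for L-phenylalanine. With the length trend as a covariate the lower count was 5 for the classes on day 15, 1 on day 21, 15 on day 27, 1 for early and 7 for late monosodium glutamate, 14 for diazinon, 1 for late amiodarone, 5 for benzene and 0 for ibuprofen. Under it the day 21 class differences turned to 0.21 for EGLN1, -0.021 for GAPDH, 0.17 for LOX and 0.016 for PFKM, arsenic to -0.52 for CA9, cadmium to 0.046 for HK1, 0.068 for PDK1 and 0.057 for PGK1, lead acetate to 0.018 for BNIP3L, okadaic acid to 0.026 for EGLN1 and -0.051 for PFKFB4, ibuprofen to 0.037 for EGLN1, and monosodium glutamate to 0.024 for GPI, 0.0033 for KDM3A, 0.020 for LDHA and 0.0070 for SLC2A3. Without libraries of a length trend below -0.15 the lower count was 8 for the classes on day 15, 2 on day 21, 1 for early and 4 for late monosodium glutamate, 6 for diazinon, 2 for late amiodarone and 0 for ibuprofen. The day 21 class differences then turned to 0.046 for EGLN1 and 0.12 for LOX, arsenic to -0.15 for CA9, Bis-I to -0.012 for GAPDH, ibuprofen to 0.059 for EGLN1, 0.040 for HK1 and 0.024 for PFKP, and monosodium glutamate to 0.050 for GPI, 0.030 for HK1, 0.066 for KDM3A, 0.057 for LDHA, 0.029 for MXI1, 0.022 for PGK1 and 0.053 for SLC2A3, which are also the values of ibuprofen without its day 8 library and of monosodium glutamate without its day 1 library. With each library centred the lower count was 11 for the classes on day 21, 7 for early isotretinoin, 3 for early amiodarone, 5 for cadmium, 3 for early and 1 for late monosodium glutamate, 11 for diazinon, 7 for early U0126, 11 for vincristine and 1 for ibuprofen. The median of all genes in the centred fits was 0.29 for cadmium, 0.19 for vincristine and 0.092 for early monosodium glutamate. Cadmium then turned to 0.41 for ENO2, 0.54 for GAPDH, 0.60 for HK1, 0.28 for HK2, 0.31 for KDM3A, 0.46 for LOX, 0.46 for PDK1, 0.43 for PFKFB3, 0.19 for PFKFB4, 0.10 for PFKL, 0.083 for PFKM, 0.46 for PGAM1 and 0.63 for PGK1, monosodium glutamate to 0.071 for ALDOA, 0.053 for BNIP3, 0.091 for EGLN1, 0.15 for ENO1, 0.10 for ENO2, 0.16 for GPI, 0.058 for HK1, 0.11 for LDHA, 0.041 for PGAM1 and 0.019 for SLC2A3, and vincristine to 0.091 for EGLN1 and 0.064 for KDM3A. Without its day 4 library vincristine turned to 0.11 for ENO1, 0.062 for KDM3A, 0.0090 for PGK1 and 0.065 for SLC2A1. Without an intensity trend DMSO had 1 lower. On compounds with a library on every day, the day 10 minus day 1 log2 ratio of ALDOC to ALDOA was 0.38 (permutation p adjusted 0.0524) and that of PFKFB4 to PFKFB3 0.17 (permutation p adjusted 0.104). Leaving out each library in turn gave lower counts on days 1 to 6 of 7 to 10 for retinoic acid, 8 to 12 for isotretinoin, 3 to 5 for amiodarone, 10 to 12 for Bis-I, 15 to 18 for cadmium, 1 to 27 for monosodium glutamate, 8 to 12 for PD166866, 9 to 15 for U0126, 7 to 18 for vincristine and 0 to 2 for DMSO. Higher counts ranged over 14 to 16 for 5-fluorouracil, 29 to 31 for arsenic, 21 to 23 for busulfan, 23 to 25 for AraC, 5 to 8 for dexamethasone, 18 to 20 for hydroxyurea, 10 to 13 for K252a, 11 to 15 for lead acetate and 27 to 28 for okadaic acid. Lower counts on days 8 to 39 ranged over 8 to 15 for retinoic acid, 11 to 16 for isotretinoin, 0 to 19 for amiodarone, 1 to 20 for benzene, 20 to 29 for Bis-I, 11 to 30 for dexamethasone, 17 to 24 for hydroxyurea, 13 to 28 for K252a, 17 to 28 for lead acetate, 22 to 29 for PD166866, 15 to 34 for U0126, 0 to 22 for diazinon, 0 to 5 for monosodium glutamate, 0 to 12 for L-phenylalanine and 0 to 11 for ibuprofen. TPM gives no read depth, so the precision of low genes such as CA9 before day 21 is unknown.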
